A study of Mus musculus with 202 samples.

Results

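Single eggs of third-generation (F3) C57Bl/6J mice were compared between a lineage founded on a diet rich in fat and sugar, HFHS+Veh, and its control lineage, CD+Veh. All oocytes titled F3 HFHS+Veh or F3 CD+Veh were taken, and kept where they reached 100000 gene counts and 4000 detected genes. Control oocytes 19 and 21, rich in RNA of the cumulus cells that surround the egg, were left out. This gave 13 of 24 HFHS+Veh oocytes and 18 of 24 CD+Veh oocytes, 31 of the 202 libraries of the series.

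The HFHS+Veh oocytes descended from F0 females given a diet high in fat and sugar and, as hormone treatment, the vehicle alone. The CD+Veh oocytes descended from F0 females given a control diet and the same vehicle, so neither lineage had received the androgen that other groups of the study did. Each library was 1 oocyte arrested at metaphase II (MII), prepared with Smart-seq2, a full-length method without molecular identifiers. The ages of the animals and the diet of the F1 to F3 mice themselves are not given in the labels. The number before the point in the HFHS+Veh titles was taken as the animal, which gave 5 kept oocytes of animal 22 and 8 of animal 26. None of the 8 oocytes of animal 25 was kept (1639 to 13586 gene counts each). The control titles name no animal, so each group is 1 sample of oocytes, no test between the groups was possible, and the spread given below is the spread over oocytes. The labels of animal 22 disagree among themselves: the titles say F3, and the characteristics of all 8 of its oocytes say F2. The comparison is therefore also given for each animal. The position of every gene is that of GENCODE vM21 on GRCm38.

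A fully grown oocyte has stopped transcribing, so the messenger RNA in an MII egg is a stored maternal supply laid down while the oocyte grew in the ovary. These stored messages are held back, activated or destroyed through their poly(A) tails, and they carry the embryo until its own genome is switched on. Maternal effect genes, whose products the mother must supply for the embryo to divide, are part of this stock. Libraries made by poly(A) capture, as here, read messages with a longer tail more readily.

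The HFHS+Veh libraries were shallower. They held 186934 to 1186699 gene counts (median 585662), against 748453 to 6892284 (median 2725346.5) in CD+Veh, and only 2 control oocytes were no deeper than the deepest HFHS+Veh oocyte. With every oocyte thinned to 180000 counts, a median of 6072 genes (5019 to 6587) had a count in HFHS+Veh, against 6026 (5034 to 7152) in CD+Veh. Without thinning the medians were 7127 and 8225 genes. Animal 22 gave a median of 5737 genes at equal depth and animal 26 gave 6086. Spike-in RNA took a median of 0.304% of counts in HFHS+Veh and 0.287% in CD+Veh. All 17 oocyte markers were in the table, and their summed level averaged 16204 ± 2243 CPM (counts per 1000000 gene counts) in HFHS+Veh, against 17280 ± 3074 CPM in CD+Veh (SD over oocytes, n = 13 and 18).

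**Figure D1:**
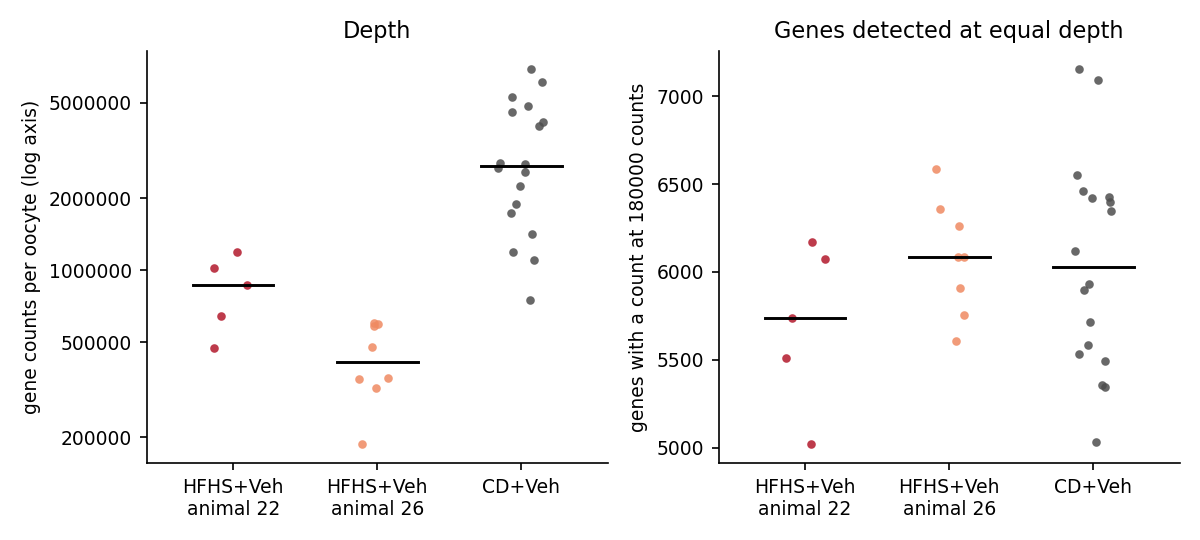
Gene counts per oocyte on a log axis (left) and genes with a count after thinning to 180000 counts (right), for oocytes of F3 HFHS+Veh animals 22 and 26 and of F3 CD+Veh; points are oocytes and bars are medians. The HFHS+Veh oocytes lie at the shallow end on the left, while on the right their range of 5019 to 6587 genes falls within 5034 to 7152 in CD+Veh except at its lower end.

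Most markers of other cells were low in both kept groups, apart from a few genes of the cumulus list. The 40 cumulus and granulosa markers summed to 3202 ± 1288 CPM in HFHS+Veh, against 3399 ± 1780 CPM in CD+Veh (SD over oocytes), with medians of 3413 and 2959 CPM. Control oocytes 19 and 21, left out, stood at 10482 and 71874 CPM, and the highest kept control at 8612 CPM. Over the markers that were at least 10 times higher in oocyte 21, oocyte 19 had 5995 CPM, less than the 6817 CPM of the highest kept control, so oocyte 19 did not stand apart on these. Of the 40 markers, 26 had a median of 0 in HFHS+Veh and 25 in CD+Veh. The highest medians were those of Spp1 (1467 and 1010 CPM) and Serpine2 (1183 and 1416 CPM), while those of Fshr and Cyp11a1 were 0. The sum was thus carried largely by 2 genes. Among the rest, the medians of Akr1c18 (34.5 and 7.85 CPM), Vim (14.18 and 3.096 CPM), Gja1, Cyp19a1, Inha, Hsd3b1 and Tnfaip6 were higher in HFHS+Veh. Those of Kitl, Nr5a2, Timp1 (2.12 and 3.449 CPM), Mro, Col4a1, Vcan and Lgals1 were lower. All 17 immune cell markers in the table and all 7 erythroid ones had a median of 0 in both groups. So did 9 of 10 oviduct epithelium markers in HFHS+Veh and 7 in CD+Veh, and 12 of 13 stroma, endothelium and theca markers in HFHS+Veh and 10 in CD+Veh. Exceptions were Cdh1 (medians of 59.0 and 62.2 CPM) and Pecam1 (76.6 and 132 CPM). Summed immune markers reached 190 CPM in the highest kept control.

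Levels were compared for the 4475 genes with a mean of at least 20 CPM in either group, as the ratio of the mean over HFHS+Veh oocytes to the mean over CD+Veh oocytes, every oocyte weighing the same. At least 2-fold higher in HFHS+Veh were 106 genes (2.37% of those compared), and 175 genes (3.91%) were at least 2-fold lower, so that 281 (6.28%) passed the fold in either direction. For 0 genes (0.0%) did the oocytes of the groups fail to overlap. The median log2 ratio of all genes compared was -0.02. Scaling by trimmed means (TMM) instead of library totals moved that median to -0.18, and the counts to 68 higher and 278 lower; a ratio below is on the scale of library totals unless said otherwise. The genes past the fold were mostly weakly expressed: 90 higher and 132 lower among 1623 genes at 20 to 50 CPM, 16 and 42 among 1807 genes at 50 to 200 CPM, 0 and 1 among 860 genes at 200 to 1000 CPM, and none (0 and 0) among the 185 genes above. With control oocytes 19 and 21 included, 99 genes were higher and 684 lower. Against only the 2 shallow control oocytes, 503 were higher and 631 lower, and with the generation read from the characteristics in place of the titles, 574 and 223. Of the genes named below with a log2 ratio, which also number 106, 54 passed the fold, and 30 of these still did with the generation of the characteristics, which sets 16 HFHS+Veh oocytes (8 of animal 26 and 8 titled F2) against the same controls. Under that reading 19 of the named genes changed direction. Against the 2 shallow controls 38 of the 54 stayed past the fold and 11 of the named genes changed direction. The values of these genes stand beside each of them. CPM is not scaled to gene length, so it ranks the counts behind a ratio and not the number of molecules.

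**Figure D2:**
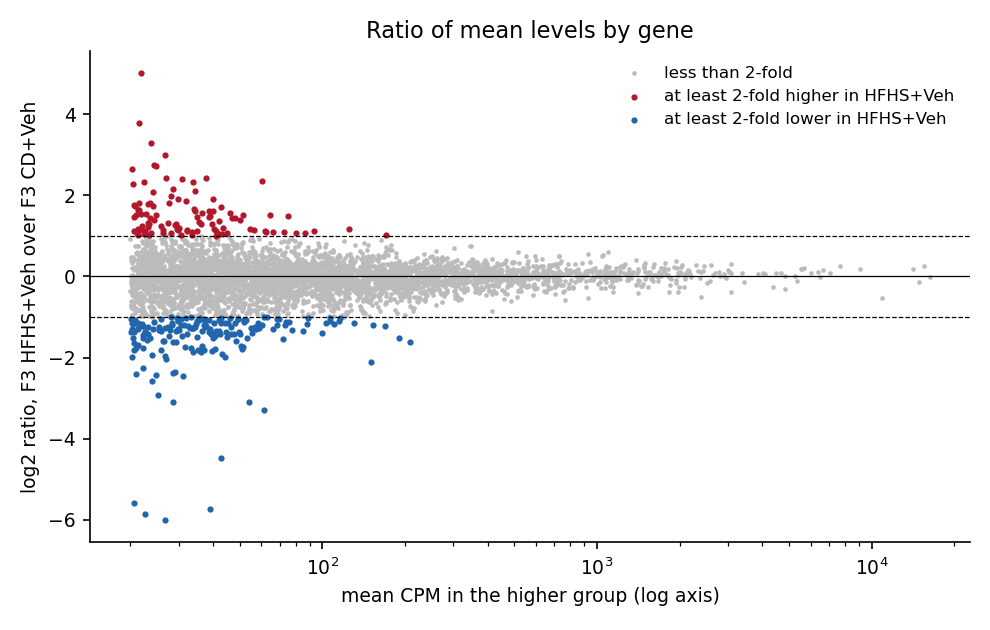
Log2 ratio of F3 HFHS+Veh over F3 CD+Veh against the mean CPM in the higher group (log axis) for the 4475 genes compared; red points are at least 2-fold higher in HFHS+Veh, blue ones at least 2-fold lower, and dashed lines mark 2-fold. The 106 higher and 175 lower genes sit at the left, and above 1000 CPM no gene of 185 passes the fold.

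Each animal was also set against the controls alone. Of the same 4475 genes, 159 (3.55%) were at least 2-fold higher and 426 (9.52%) at least 2-fold lower in animal 22 than in CD+Veh, and 126 (2.82%) and 235 (5.25%) in animal 26. Between animals 22 and 26, 16.2% of genes passed 2-fold (731 of 4514). Means over 5 and 8 oocytes pass a fold more often than means over 13 and 18, so these shares do not show that the animals differ and are not to be read against the 6.28% above. Pairs of F2 CD+Veh animals, with 3 to 5 oocytes each, had 2.597% to 27.0% of genes past 2-fold. Of the genes past the fold, 44 of the 106 higher and 87 of the 175 lower ones stayed past it whichever oocyte was left out.

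At 50 CPM and above, where counts are less scarce, 16 genes were at least 2-fold higher and 43 at least 2-fold lower in HFHS+Veh. Of these, 4 and 21 stayed past the fold whichever oocyte was left out. The 4 higher ones, named here after their values were seen, were Map3k4, Th, Cenpi and Zfp758. Cenpi encodes a protein of the inner kinetochore, to which spindle fibres attach. It ranged from 1.69 to 239.8 CPM (median 63.8) in HFHS+Veh, against 0 to 65.5 CPM (median 23.8) in CD+Veh, a log2 ratio of 1.49. Of the HFHS+Veh oocytes, 6 lay above every control. Cenpi, Th and Zfp758 fell short of the fold with the generation of the characteristics (log2 ratios of 0.73, 0.95 and 0.53), as did Th against the 2 shallow controls (0.66). Th, which encodes tyrosine hydroxylase, the first enzyme of dopamine synthesis, had a median of 52.1 CPM (0 to 128) in HFHS+Veh, against 11.5 CPM (0 to 65.5) in CD+Veh, a log2 ratio of 1.502. Zfp758, a zinc finger gene of a large family whose members may share reads, had 46.3 CPM (4.24 to 111) against 19.12 CPM (0 to 135), a log2 ratio of 1.18.

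The lower genes at 50 CPM and above that are given next were chosen after their values were seen. Taf6, a subunit of the general transcription factor TFIID, ranged from 0 to 122 CPM (median 42.6) in HFHS+Veh, against 13.36 to 228 CPM (median 97.5) in CD+Veh. The log2 ratio was -1.39, and 1 of 13 HFHS+Veh oocytes exceeded the control median. Taf2, another TFIID subunit, had a median of 14.18 CPM (2.12 to 53.5) in HFHS+Veh, against 46.3 CPM (7.39 to 121) in CD+Veh, also a log2 ratio of -1.39. Ino80d, a subunit of the INO80 chromatin remodelling complex, had 28.7 CPM (5.79 to 77.8) against 67.4 CPM (19.16 to 288), a log2 ratio of -1.34. For each of these genes the oocytes of the groups overlapped. Against the 2 shallow controls their log2 ratios were -0.87, 0.37 and -0.12, and with the generation of the characteristics those of Taf2 and Ino80d were -0.88 and -0.60. Clip1, which links growing microtubule ends to membranes, was the only gene between 200 and 1000 CPM past the fold. It ranged from 18.7 to 126 CPM (median 78.5) in HFHS+Veh, against 10.6 to 802 CPM (median 136) in CD+Veh, a log2 ratio of -1.61, and 0 of 13 HFHS+Veh oocytes exceeded the control median. The log2 ratio of its medians was -0.79.

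Hibadh, a mitochondrial enzyme of valine breakdown, was also lower, with 14.9 to 54.0 CPM (median 27.3) in HFHS+Veh against 5.74 to 137 CPM (median 77.4) in CD+Veh, a log2 ratio of -1.21. No HFHS+Veh oocyte (0 of 13) reached the control median. Fancc, of the Fanconi anaemia DNA repair pathway, had a median of 14.7 CPM (2.84 to 44.0) against 40.9 CPM (0.445 to 154), a log2 ratio of -1.42. Pom121, an anchor of the nuclear pore, had 16.6 CPM (0 to 58.0) against 53.0 CPM (2.82 to 143), a log2 ratio of -1.30. Gbf1, which activates Arf proteins on the Golgi, had 31.2 CPM (11.95 to 129.8) against 129.7 CPM (4.23 to 255), a log2 ratio of -1.17. Hibadh (-0.89), Fancc (-0.54) and Gbf1 (-0.54) did not reach the fold with the generation of the characteristics.

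The genes with the largest ratios were named by a rule that asked for a count in most oocytes of the higher group, at least 2-fold with each animal alone, and medians of the same direction. It was met by 31 higher and 88 lower genes, of which 11 of the 12 higher ones with the largest ratio and the 12 such lower ones are given. The higher ones were Slc5a3, Akap8, Steap4, Map3k4, L3mbtl2, Plekhg3, Fem1c, Lrp5, Dpy19l2, Bank1 and Zfp947. Their means were 20.4 to 60.1 CPM in HFHS+Veh, against 2.46 to 11.8 CPM in CD+Veh, with log2 ratios of 3.28 down to 1.64. In each of these genes 3 to 6 HFHS+Veh oocytes exceeded every control, and apart from Map3k4 each had at least 1 HFHS+Veh oocyte with no count. Oocytes of the F3 androgen lineage on control diet, CD+DHT, were also set against the same controls. There Slc5a3 (log2 ratio 1.74), Steap4 (1.26) and Map3k4 (1.02) were past 2-fold higher too. Plekhg3 (-0.52), Dpy19l2 (-0.41) and Lrp5 (-0.38) were lower, and the rest lay between. As these genes were chosen for a low mean in the same controls, a higher level in CD+DHT follows in part from that choice.

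Slc5a3 (chr16:92058322-92087473), the sodium-coupled transporter that takes up myo-inositol, had the largest ratio. It ranged from 0 to 119 CPM (median 6.94) in HFHS+Veh, against 0 to 10.8 CPM (median 1.04) in CD+Veh, a log2 ratio of 3.28, and 3.98 and 2.57 with animals 22 and 26 alone. The gene lies wholly within Mrps6 on the same strand, so reads of the overlap cannot be assigned with certainty. Map3k4 (chr17:12227621-12318796), a kinase that activates the p38 and JNK stress pathways, ranged from 4.88 to 255 CPM (median 30.3) in HFHS+Veh, against 0 to 41.2 CPM (median 11.4) in CD+Veh. This gave a log2 ratio of 2.35 (1.89 to 2.58 with single oocytes left out), and 9 of 13 HFHS+Veh oocytes were above the control median.

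Steap4, a metalloreductase linked to inflammation and nutrient state in fat tissue, had a median of 14.18 CPM (0 to 106) in HFHS+Veh, against 1.30 CPM (0 to 64.6) in CD+Veh. Its log2 ratio was 2.42, and 3.38 without control oocyte 20, but 0.13 against the 2 shallow controls. Bank1, a scaffold protein known from B cells, had 15.6 CPM (0 to 70.0) against 3.48 CPM (0 to 24.4), a log2 ratio of 1.75, and 11 of 13 HFHS+Veh oocytes were above the control median. Fem1c, a substrate receptor of a cullin ubiquitin ligase, had a log2 ratio of 2.08, and Dpy19l2, which attaches the acrosome to the nucleus in sperm, one of 1.78. Zfp947, another zinc finger gene, had a log2 ratio of 1.64. Bank1 and Zfp947 fell short of the fold, at 0.62 and 0.39, with the generation of the characteristics.

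The ratios of the rest of the higher genes moved with single oocytes, but stayed past the fold whichever one was left out. Genes given above moved as well, Dpy19l2 to 1.25 and Zfp947 to 1.16 at the lowest. Akap8, a nuclear anchor of protein kinase A, had a log2 ratio of 2.72, which became 2.02 without oocyte 2 of animal 26 and 3.47 without control oocyte 11. L3mbtl2, a Polycomb protein, had 2.34, and 1.62 without oocyte 7 of animal 26. Plekhg3, an activator of small GTPases, had 2.28, and 1.68 without oocyte 1 of animal 22. Lrp5, a co-receptor of Wnt ligands, had 1.90, with 1.397 without oocyte 7 of animal 26 and 2.78 without control oocyte 7, but its median was 3.11 CPM in HFHS+Veh, against 2.72 CPM in CD+Veh, a log2 ratio of medians of 0.20. With control oocytes 19 and 21 included, Akap8 was lower in HFHS+Veh (a log2 ratio of -1.18), and its direction is therefore uncertain. L3mbtl2 overlaps Chadl on the opposite strand, and whether counting used the strand is not stated in the labels.

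The 12 lower genes were Psap, 1110008L16Rik, Mtmr9, Preb, Bap1, Gatsl3, Myo1e, Map3k7, Psg17, Gtse1, Ust and Xrcc6, with log2 ratios of -3.29 to -2.05. All 12 were also lower in F3 CD+DHT against the same controls. Past 2-fold there were Psap (-2.59), Preb (-2.43), Gatsl3 (-2.31), 1110008L16Rik (-1.84), Ust (-1.73) and Psg17 (-1.49). The 12 genes were chosen for a high mean in these controls, so a lower level in CD+DHT follows in part from that choice. The share of all compared genes lower in CD+DHT is not given. Whether a lower level belongs to the HFHS+Veh lineage or to the shared controls was not tested. Some of the HFHS+Veh ratios rested on a few control oocytes with high counts. Psap, the precursor of the saposins that activate lysosomal lipid breakdown, had a mean of 6.28 CPM in HFHS+Veh, against 61.6 CPM in CD+Veh, but medians of 0 and 3.53 CPM. Its highest control oocyte had 466.05 CPM, and the log2 ratio of -3.29 became -2.59 without control oocyte 16 and -4.17 without oocyte 2 of animal 26. Bap1, a deubiquitinase of histone H2A, had a log2 ratio of -2.45, which fell short of the fold at -0.64 without control oocyte 2 and was -3.15 without oocyte 3 of animal 26. It did not reach the fold with the generation of the characteristics either (-0.85).

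Gatsl3, an arginine sensor of the mTORC1 pathway, ranged from 0 to 14.18 CPM (median 4.24) in HFHS+Veh, against 0 to 74.6 CPM (median 20.2) in CD+Veh. The log2 ratio was -2.44, and 0 of 13 HFHS+Veh oocytes exceeded the control median. Ust (chr10:8204756-8518825), which sulphates the sugar chains of proteoglycans, ranged from 0 to 176 CPM (median 3.37) in HFHS+Veh, against 0 to 445 CPM (median 133) in CD+Veh. This gave a log2 ratio of -2.11, and -2.70 without oocyte 7 of animal 22, while 2 of 13 HFHS+Veh oocytes exceeded the control median.

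Xrcc6, the Ku70 subunit that binds broken DNA ends, had a median of 0 CPM (0 to 34.0) in HFHS+Veh, against 10.8 CPM (0 to 93.5) in CD+Veh. Its log2 ratio was -2.05, and -2.67 without oocyte 8 of animal 22, but -0.75 against the 2 shallow controls; the gene overlaps Desi1 on the opposite strand. Myo1e, a motor of the actin cortex, had a log2 ratio of -2.41, and 1110008L16Rik, which overlaps Ppp2r3c on the opposite strand, -3.09. The HFHS+Veh oocytes had a median of 6.22 CPM for 1110008L16Rik, against 6.86 CPM in CD+Veh, a log2 ratio of medians of -0.14, and 6 of 13 HFHS+Veh oocytes exceeded the control median. Without single oocytes, Mtmr9, a catalytically inactive phosphatase relative, moved between -4.41 (without oocyte 1 of animal 26) and -1.64 (without control 17) around -2.92. Map3k7, the kinase TAK1 of inflammatory and TGF-beta signalling, moved between -4.06 (without oocyte 2 of animal 22) and -1.02 (without control 24) around -2.37, and was higher in HFHS+Veh against the 2 shallow controls (1.28). Gtse1, a microtubule-binding protein of dividing cells, moved between -3.42 (without oocyte 1 of animal 22) and -1.65 (without control 4) around -2.27. Psg17, of a family of near-identical pregnancy-specific glycoproteins whose reads may be shared, moved between -2.96 (without oocyte 5 of animal 26) and -1.502 (without control 22) around -2.37, and was also higher against the 2 shallow controls (1.31). Preb, which starts vesicle budding from the ER, had -2.57, and -1.84 without control 6.

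A ratio of means does not show how far the oocytes of the groups were apart, so genes were also ranked by the share of the 234 pairs, 1 HFHS+Veh and 1 CD+Veh oocyte each, in which the HFHS+Veh oocyte was higher at 180000 counts. The rule was chosen after values were seen, and the shares are a description. Thinning used 1 random draw, and the order differed with all counts. Slc9b1 (85.5%), Nek10 (84.6%) and Tube1 (84.2%) then stood above Spata7 (80.3%), and Clptm1l moved from 13.9% to 20.1%. Of the 10 most separated higher genes, the 9 given here had 79.9% to 90.6% of pairs higher, and the 10 most separated lower genes 11.5% to 17.09%. Their ratios were mostly modest. That most oocytes lay on 1 side of the control median follows from the ranking. For the genes of this ranking, the counts of oocytes beyond the control median or every control restate it and are no further support. The share of all compared genes with such counts is not given.

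Spata7 (chr12:98628157-98669815), known for its part in the connecting cilium of photoreceptors, was the most separated in thinned counts, at 90.6% of pairs. It ranged from 106 to 264 CPM (median 168) in HFHS+Veh, against 58.8 to 181 CPM (median 102) in CD+Veh. All 13 HFHS+Veh oocytes were above the control median, and the log2 ratio was 0.57, with 0.59 in animal 22 and 0.56 in animal 26. With the generation of the characteristics no difference was left, at -0.0005. Nek10 (chr14:14803415-15012059), a kinase of the NIMA family, ranged from 6.74 to 102 CPM (median 42.8) in HFHS+Veh, against 0 to 46.7 CPM (median 11.9) in CD+Veh. The log2 ratio was 1.56 (1.402 to 1.73 with single oocytes left out) and 6 HFHS+Veh oocytes exceeded every control; it was 0.95 with the generation of the characteristics. Pooled over oocytes it stood at 41.5 CPM (37.1 to 46.3) against 15.1 CPM (14.06 to 16.1), exact Poisson 95% intervals that cover counting error only.

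Slc9b1 (chr3:135348029-135397827), a sodium/hydrogen exchanger known from sperm, ranged from 10.11 to 51.8 CPM (median 27.999) in HFHS+Veh, against 0.714 to 30.7 CPM (median 12.6) in CD+Veh, a log2 ratio of 1.14. Tube1 (chr10:39133976-39152542), epsilon-tubulin of the centriole, ranged from 205 to 588 CPM (median 302) against 58.8 to 392 CPM (median 214), a log2 ratio of 0.75. With the generation of the characteristics Slc9b1 stood at 2.27 and Tube1 at -0.01, and Slc9b1 at 0.99 with TMM scaling. In both genes most HFHS+Veh oocytes, 11 and 12 of 13, exceeded the control median. F3 CD+DHT oocytes, against the same controls, had log2 ratios of 1.33 for Slc9b1 and 0.14 for Tube1.

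The other most separated higher genes were Fam96a, of cytosolic iron-sulphur cluster assembly (log2 ratio 0.64), Adss, of adenine nucleotide synthesis (0.60), Eef1e1, a scaffold of the tRNA synthetase complex (0.88), Dnajc13, an endosomal co-chaperone (0.75), and Eya1, a transcriptional co-factor (1.01). Eya1 ranged from 31.2 to 361 CPM (median 155) in HFHS+Veh, against 23.3 to 161 CPM (median 72.2) in CD+Veh. It sat at the threshold: the log2 ratio was 0.87 without oocyte 7 of animal 26, 1.11 without oocyte 3 of animal 22, and below 2-fold without several other single oocytes. It was 0.88 with TMM scaling, 0.55 with the generation of the characteristics and 0.53 against the 2 shallow controls, and Adss stood at -0.06 with the generation of the characteristics.

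Among the lower genes, Ccdc14 (chr16:34690616-34725202), of the satellites around the centrosome, was the most separated in thinned counts, at 11.5% of pairs. With all counts it had 13.25%, and Ppp4c was further apart, at 12.39%. Ccdc14 ranged from 161 to 503 CPM (median 317) in HFHS+Veh, against 265 to 705 CPM (median 445) in CD+Veh. This gave a log2 ratio of -0.56, and 5 HFHS+Veh oocytes lay below every control. Ppp4c (chr7:126785866-126792496), the catalytic subunit of protein phosphatase 4, which acts at centrosomes and in DNA repair, ranged from 0 to 39.7 CPM (median 15.6) against 8.45 to 80.1 CPM (median 42.7). Its log2 ratio was -1.34 (-1.52 to -1.22 with single oocytes left out), and 0 of 13 HFHS+Veh oocytes exceeded the control median, but it was -0.05 with the generation of the characteristics. Kctd13 (chr7:126928879-126945631), an adaptor that brings RhoA to a cullin ubiquitin ligase, ranged from 6.28 to 48.1 CPM (median 19.9) against 27.0 to 99.7 CPM (median 43.7). The log2 ratio was -1.05 (-1.18 without oocyte 3 of animal 26, -0.96 without control oocyte 14, and short of 2-fold without several other single oocytes), and 8 HFHS+Veh oocytes lay below every control. It was 0.21 with the generation of the characteristics and -0.87 against the 2 shallow controls.

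Zbed3 (chr13:95323612-95337841), whose product belongs to the subcortical maternal complex of the egg cortex, had the largest difference of mean CPM of all genes compared. It ranged from 3360 to 9949 CPM (median 7885) in HFHS+Veh, against 6838 to 17618 CPM (median 10523) in CD+Veh. The means were 7480 ± 1933 CPM and 10865 ± 2888 CPM (SD over oocytes), a log2 ratio of -0.54, with -0.58 in animal 22 and -0.51 in animal 26, and 0 of 13 HFHS+Veh oocytes exceeded the control median. The other lower genes of this ranking were Clptm1l (log2 ratio -0.91), Rasa2, an inhibitor of Ras (-0.39), Gm5434 (-0.77), Fa2h, a fatty acid hydroxylase (-0.80), D630023F18Rik (-1.96, and -2.59 without oocyte 1 of animal 26), and Nup62, of the nuclear pore (-0.71). Fa2h and Nup62 were higher, at 0.12 and 0.63, with the generation of the characteristics, and D630023F18Rik stood at 0.11 against the 2 shallow controls. Nup62 overlaps Il4i1 on the same strand over 14426 bases.

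**Figure D3:**
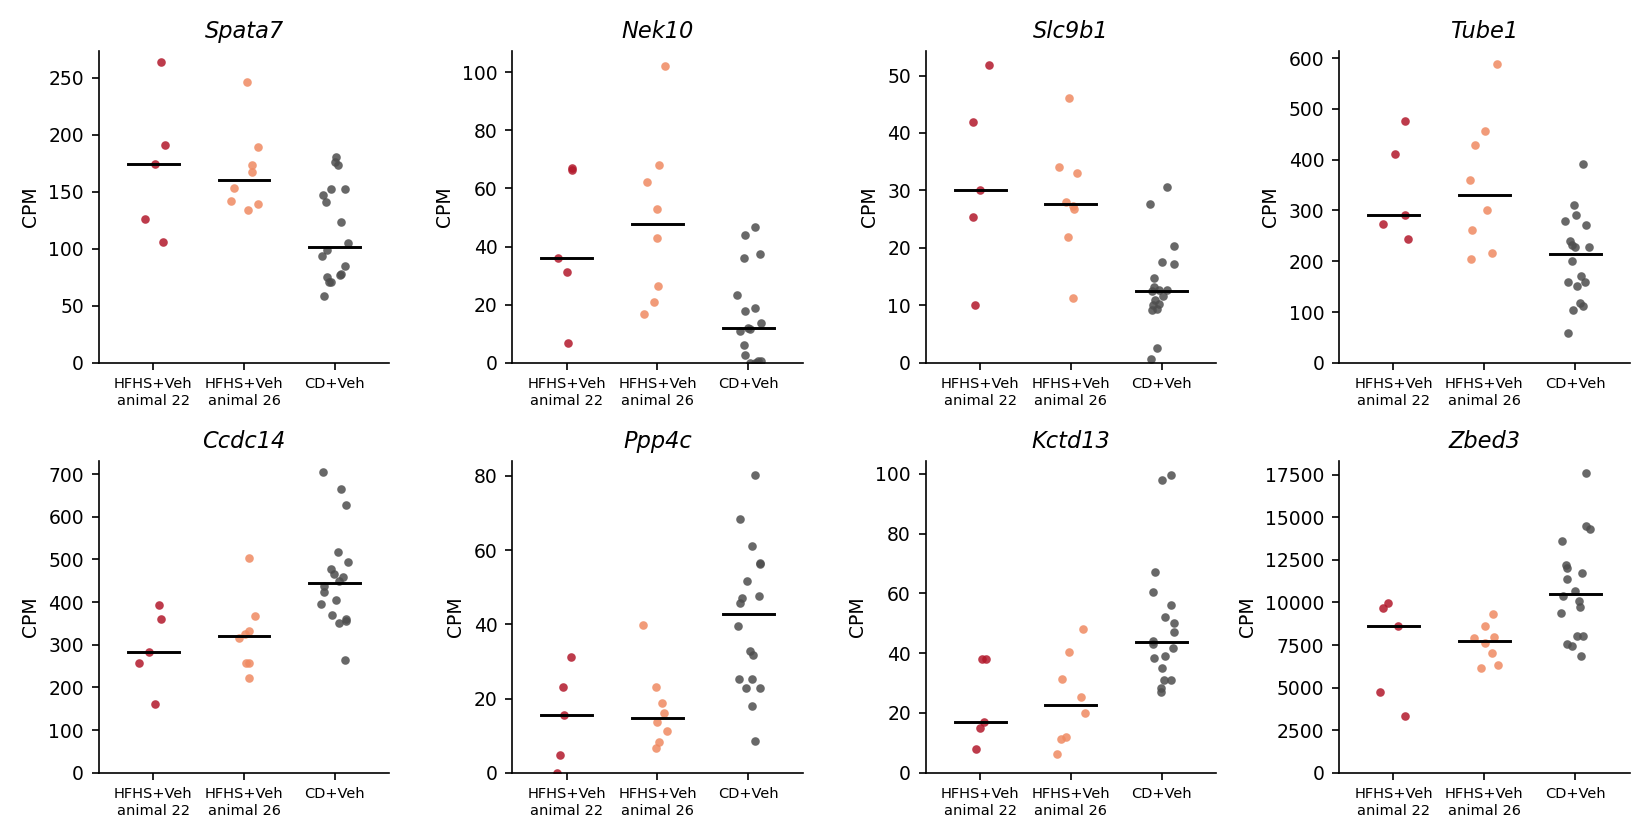
CPM in every kept oocyte of F3 HFHS+Veh animals 22 and 26 and of F3 CD+Veh for 4 of the most separated higher genes (top) and 4 of the lower ones (bottom); points are oocytes and bars are medians. In Spata7 all 13 HFHS+Veh oocytes lie above the control median, in Ppp4c and Zbed3 0 of 13 do, and in all 8 genes the groups overlap.

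The remaining genes with the largest absolute differences in level were abundant egg messages with small ratios. Dennd6a, a regulator of recycling endosomes, averaged 15466 ± 4442 CPM in HFHS+Veh, against 13041 ± 4704 CPM in CD+Veh, a log2 ratio of 0.25 that was -0.02 in animal 22. Oog3, an oocyte gene of a family with near-identical copies, averaged 14175 ± 2173 CPM against 12588 ± 2186 CPM (0.17). Tcl1, a co-activator of Akt needed for early cleavage, averaged 13613 ± 3017 CPM against 14857 ± 3919 CPM (-0.13). Fbxw24 averaged 7677 ± 1518 CPM against 6450 ± 1880 CPM (0.25), and Rbbp7, a histone-binding subunit of deacetylase complexes, 9033 ± 1170 CPM against 8018 ± 1589 CPM (0.17). Each of these differences was smaller than the SD over the oocytes of either group. With the generation of the characteristics Dennd6a, Oog3, Fbxw24 and Rbbp7 were lower (log2 ratios of -0.53, -0.42, -0.37 and -0.47), and against the 2 shallow controls Tcl1 was higher (0.31).

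The ratio moved with the base composition of the transcript. The GC content of the longest annotated transcript was known for 4282 of the 4475 genes. Across 5 classes of equal size from the lowest to the highest GC content, the median log2 ratio was 0.13, 0.05, -0.03, -0.09 and -0.23. In the highest class, above 50.8% GC, 84 genes were at least 2-fold lower in HFHS+Veh and 19 higher. In the lowest class, below 41.7% GC, 9 were lower and 32 higher. Both animals showed the same order at the ends, with a highest-class median of -0.42 in animal 22 and -0.19 in animal 26, against 0.13 and 0.09 in the lowest class. Across genes, Spearman's rho between the ratio and GC content was -0.31 (n = 4282 genes of the same libraries, which are not independent), and that between the ratio and transcript length -0.03. F3 CD+DHT oocytes, set against the same controls, had a highest-class median of 0.14, and HFHS+Veh against CD+Veh had -0.01 in F1 and 0.02 in F2.

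The start of the coding sequence is shown for a gene with a GC-rich and a gene with a GC-poor transcript. Of the most separated genes, Kctd13 (lower) had the highest GC content, 57.7%, and Spata7 (higher) the lowest of those given here with a known value, 37.9%, and these were chosen for that reason. The first 120 coding bases of each, from GENCODE vM21, are printed 5′ to 3′ with G and C in capitals. Such bases number 85 of 120 in Kctd13 and 64 of 120 in Spata7. The printed stretch of Spata7 is thus not GC-poor, unlike its whole transcript.
Kctd13: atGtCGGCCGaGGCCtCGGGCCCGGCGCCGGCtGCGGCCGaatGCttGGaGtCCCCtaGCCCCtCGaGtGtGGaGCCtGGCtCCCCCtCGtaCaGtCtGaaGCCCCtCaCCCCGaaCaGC
Spata7: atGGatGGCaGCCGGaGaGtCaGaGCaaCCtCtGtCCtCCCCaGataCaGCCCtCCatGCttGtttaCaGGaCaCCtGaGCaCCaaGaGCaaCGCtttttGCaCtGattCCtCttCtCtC
Both genes lie on the plus strand, at the positions given above.

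Libraries differed in composition too. The mean GC content of the counted transcripts was a median of 44.96% (44.19% to 45.20%) over HFHS+Veh oocytes and 45.08% (44.65% to 45.97%) over CD+Veh oocytes. Across the 18 control oocytes it moved with the number of genes at equal depth (Spearman's rho 0.82) and less with depth (0.38), as a description of oocytes that may share animals. Depth, animal and lineage cannot be told apart here, and the part of GC content in the ratio of a single gene was not tested beyond an adjustment. With the median of each of 10 classes by GC content subtracted, 102 genes were higher and 146 lower, of which 90 and 139 were among the 106 and 175.

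**Figure D4:**
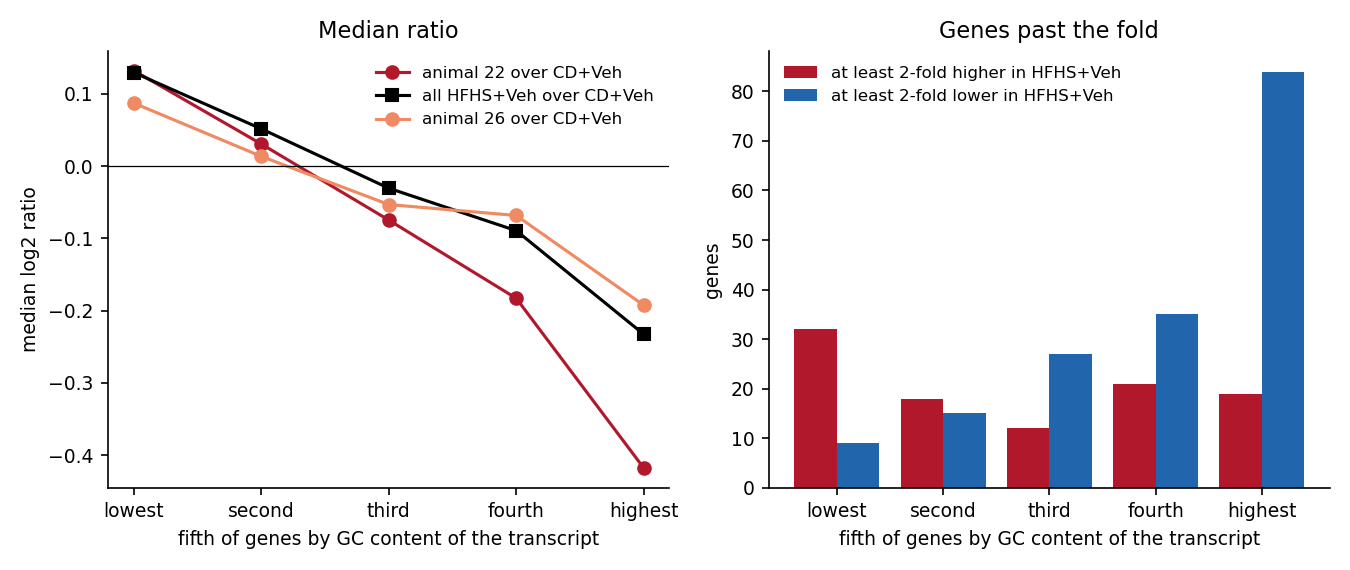
Median log2 ratio to F3 CD+Veh in 5 equal classes of genes by transcript GC content, for animal 22, all HFHS+Veh oocytes and animal 26 (left), and the number of genes at least 2-fold higher or lower in HFHS+Veh in each class (right). The median for all oocytes runs from 0.13 in the lowest class to -0.23 in the highest, which holds 84 of the lower genes.

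Gene groups were read against the background of 2.37% of genes higher and 3.91% lower past the fold, and a median log2 ratio of -0.02 (-0.18 with TMM scaling). With the GC adjustment above, the median of all genes was 0.0, and medians so adjusted are given for some groups. Whatever the size of the ratio, 2149 of the 4475 genes compared were higher and 2326 lower. Of the 22 maternal effect genes compared, 0 passed the fold in either direction; the median log2 ratio was -0.08, and -0.34 and -0.03 with animals 22 and 26. Their summed level averaged 19815 ± 1451 CPM in HFHS+Veh, against 22836 ± 3048 CPM in CD+Veh (SD over oocytes), a difference smaller than that of Zbed3 alone. Zar1, which holds maternal messages in storage, ranged from 6.94 to 94.4 CPM (median 39.3) in HFHS+Veh, against 28.5 to 144 CPM (median 62.1) in CD+Veh, a log2 ratio of -0.86. Hsf1, the maternal heat shock factor, had a median of 48.1 CPM against 121 CPM (-0.89). Tle6, another member of the subcortical complex, had a mean of 25.9 CPM against 40.1 CPM (-0.63). Zar1 and Tle6 were higher, at 1.42 and 0.06, with the generation of the characteristics.

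Genes for the egg coat and sperm contact were lower in 3 of the 4 compared, and 1 of these passed the fold. Astl encodes ovastacin, the protease that cuts ZP2 after fertilisation. It ranged from 2.84 to 171 CPM (median 64.2) in HFHS+Veh, against 10.54 to 651 CPM (median 120.2) in CD+Veh, a log2 ratio of -1.19 that was -0.88 without control oocyte 23. The zona genes Zp1, Zp3 and Zp2 had log2 ratios of -0.55, -0.35 and 0.04, and Zp2 stood at -0.13 with TMM scaling, -0.32 with the generation of the characteristics and -0.65 against the 2 shallow controls. That of Astl was -0.34 with the generation of the characteristics and -0.91 for the medians. Of the 13 oocyte secreted factors and transcription factors compared, 1 passed the fold, Sohlh2, an early oocyte regulator with a mean of 15.6 CPM against 31.9 CPM (log2 ratio -1.04, but -0.81 without control oocyte 11 and -0.34 with the generation of the characteristics). Gdf9, through which the egg signals to cumulus cells, averaged 3884 ± 1614 CPM against 4845 ± 2268 CPM (-0.32), a difference within the spread of the oocytes.

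For meiotic arrest and the cell cycle, 1 of 31 genes passed the fold upwards and 1 downwards, and the median was -0.04. Ccnb3, the cyclin that helps drive the first meiotic division, had a median of 48.8 CPM (3.11 to 309.6) in HFHS+Veh, against 25.97 CPM (2.51 to 83.2) in CD+Veh. Its log2 ratio of 1.08 was 0.56 without oocyte 5 of animal 26, 0.90 with TMM scaling, 0.67 with the generation of the characteristics and 0.52 against the 2 shallow controls. Cdc25a, a phosphatase that activates cyclin-dependent kinases, averaged 14.51 CPM against 29.6 CPM (-1.03, but -0.75 without control oocyte 1, -0.92 against the 2 shallow controls and 0.36 with the generation of the characteristics). Of 25 genes for the spindle, tubulins and motors, 0 passed the fold, with a median of -0.09; Tubb3 averaged 53.7 ± 22.45 CPM against 85.05 ± 45.5 CPM (-0.66), and Kif5b, the heavy chain of kinesin-1, 96.8 ± 53.6 CPM against 68.3 ± 55.7 CPM (0.50). Tubb3 was higher with the generation of the characteristics (1.17) and Kif5b lower against the 2 shallow controls (-0.74).

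Genes that store, deadenylate and destroy maternal messages had a median log2 ratio of -0.22 (-0.11 with the GC adjustment), with 21 of 31 lower, but 1 past the fold. That gene was Eif4e1b, the oocyte form of the cap-binding protein, with a median of 14.7 CPM (0 to 139) in HFHS+Veh, against 35.2 CPM (2.72 to 224) in CD+Veh. This gave a log2 ratio of -1.005, but -0.07 in animal 22 and -2.23 in animal 26, and -0.77 without control oocyte 17 and -0.90 with the generation of the characteristics. The readers of methylated adenine Ythdf2 and Ythdf1 had log2 ratios of -0.69 and 0.61, but Ythdf2 was at 1.93 with the generation of the characteristics and Ythdf1 at -0.78 with control oocytes 19 and 21. The summed level of the group was nearly the same, 18011 ± 878 CPM against 18395 ± 1059 CPM.

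Of 10 genes for DNA methylation, 0 passed the fold, with a median of -0.14 (0.01 with the GC adjustment). Kdm1b, the demethylase that oocytes need to set up maternal imprints, ranged from 196 to 542 CPM (median 335) in HFHS+Veh, against 286 to 868 CPM (median 487) in CD+Veh, a log2 ratio of -0.52. Dnmt1, the maintenance methyltransferase, averaged 274 ± 135 CPM against 204 ± 118 CPM (0.43), and Dnmt3l, the partner of the de novo enzymes, 19.999 ± 19.28 CPM against 30.6 ± 35.5 CPM (-0.61, but 0.97 against the 2 shallow controls). Of 29 histone modifiers, 1 passed the fold upwards and 1 downwards, with a median of -0.17 (-0.03 with the GC adjustment). Hdac4, a histone deacetylase, averaged 36.5 CPM against 12.4 CPM (1.55), though its medians were 15.6 and 9.33 CPM and its log2 ratio 0.90 without oocyte 1 of animal 26 and 0.98 with the generation of the characteristics. Kdm2a, a demethylase, averaged 9.14 CPM against 20.4 CPM (-1.16), with -0.44 without control oocyte 2, -1.79 without oocyte 3 of animal 26, -0.12 with the generation of the characteristics and 0.0067 against the 2 shallow controls. Of 7 imprinted genes, 1 passed: Plagl1, a zinc finger regulator of growth genes, with a median of 3.41 CPM (0 to 80.6) against 51.9 CPM (0 to 144), a log2 ratio of -1.27.

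Androgen and other steroid receptors and steroid enzymes had a median log2 ratio of -0.27 (-0.28 with the GC adjustment), with 12 of 15 genes lower and 1 past the fold. The median was -0.56 in animal 22 and -0.23 in animal 26. Esr2, the estrogen receptor beta, ranged from 53.7 to 242 CPM (median 139) in HFHS+Veh, against 83.7 to 327 CPM (median 242) in CD+Veh. Its log2 ratio was -0.62, with -0.79 in animal 22 and -0.53 in animal 26, and 0 of 13 HFHS+Veh oocytes exceeded the control median. Pgrmc1, a membrane protein linked to progesterone responses, had a median of 28.4 CPM (2.12 to 85.6) against 72.1 CPM (13.402 to 109), a log2 ratio of -0.85. Nr3c1, the glucocorticoid receptor, averaged 19.7 CPM against 32.6 CPM (-0.72, but 0.66 against the 2 shallow controls). The gene past the fold was Akr1c18, which inactivates progesterone and is also among the cumulus markers. It had a higher median in HFHS+Veh, 34.5 CPM against 7.85 CPM, and a log2 ratio of means of -1.51 that was -0.78 without control oocyte 17, at 1480 CPM. The summed level of the group was 1278 ± 294 CPM against 1683 ± 427 CPM.

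**Figure D5:**
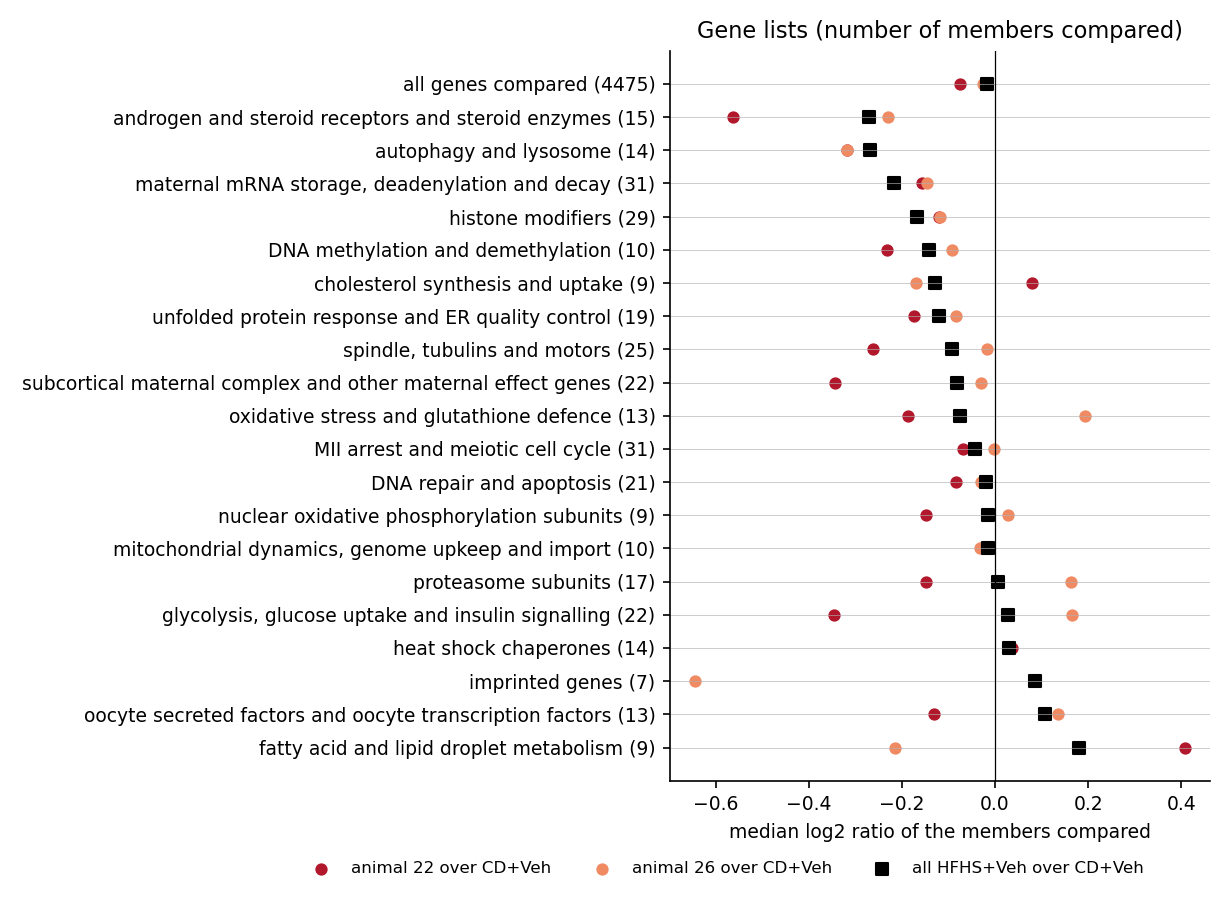
Median log2 ratio to F3 CD+Veh of the members compared in each gene list with at least 5 of them, for animal 22, animal 26 and all HFHS+Veh oocytes, with the number of members in brackets and all 4475 genes at the top. The medians for all oocytes lie between -0.27 and 0.18, and among the 7 imprinted genes the animals stand at 0.08 and -0.64.

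Energy metabolism showed few members past the fold. Of 9 subunits of oxidative phosphorylation and 10 genes for mitochondrial dynamics and upkeep, 0 and 0 passed, with medians of -0.02 and -0.01. Mff, named after its values were seen, the receptor that brings the fission dynamin to mitochondria, ranged from 435 to 709 CPM (median 583) in HFHS+Veh, against 239 to 603 CPM (median 452) in CD+Veh, a log2 ratio of 0.38, and 5 HFHS+Veh oocytes exceeded every control. Dnm1l, that dynamin, averaged 1047 ± 382 CPM against 743 ± 324 CPM, a log2 ratio of 0.49 that was 0.02 in animal 22 and 0.73 in animal 26. Of 22 genes for glycolysis and insulin signalling, 1 passed the fold upwards, Pfkl, a phosphofructokinase, with a mean of 22.56 CPM against 10.48 CPM (1.11, but 0.82 without oocyte 2 of animal 26, 0.80 with the generation of the characteristics, 0.09 against the 2 shallow controls and -1.57 with control oocytes 19 and 21). Mtor, the kinase of nutrient sensing, averaged 23.4 CPM against 43.1 CPM (-0.88).

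Lipid genes did not pass the fold either: 0 of 9 for cholesterol and 0 of 9 for fatty acids and lipid droplets. Msmo1 of cholesterol synthesis averaged 140.2 ± 47.1 CPM in HFHS+Veh, against 113 ± 48.2 CPM in CD+Veh (0.31), and Scap, the sterol sensor, 53.3 ± 46.6 CPM against 79.1 ± 64.2 CPM (-0.57). With the generation of the characteristics these were -0.39 and 0.08. Acsl3, which activates fatty acids at lipid droplets, averaged 297 ± 140.3 CPM against 231 ± 83.6 CPM (0.36). The median of the fatty acid group was 0.18, with 0.41 in animal 22 and -0.21 in animal 26.

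In the unfolded protein response and ER quality control, 1 of 19 genes passed the fold, and the median was -0.12. Syvn1, the ubiquitin ligase of ER-associated degradation, averaged 12.1 CPM in HFHS+Veh, against 30.01 CPM in CD+Veh (-1.31). Edem1, which hands misfolded glycoproteins to that pathway, ranged from 26.75 to 134 CPM (median 55.2) against 6.35 to 202 CPM (median 109.6), a log2 ratio of -0.86, and 1 of 13 HFHS+Veh oocytes exceeded the control median. Ern1, the stress sensor IRE1, had a median of 24.8 CPM (1.95 to 66.6) against 46.5 CPM (2.12 to 104), a log2 ratio of -0.94. Pdia4, a disulphide isomerase, was on the other side, at 164 ± 144 CPM against 87.2 ± 97.2 CPM (0.91, but -0.0025 with control oocytes 19 and 21).

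Of 14 autophagy and lysosome genes, 9 were lower, and the median was -0.27 (-0.23 with the GC adjustment). The 1 past the fold was higher: Ctsl, a lysosomal protease with a mean of 41.0 CPM against 20.4 CPM (1.01). Its log2 ratio was 0.83 without oocyte 1 of animal 26, 0.87 with TMM scaling and -0.16 with control oocytes 19 and 21. Lamp2, of the lysosomal membrane, averaged 46.4 CPM against 78.8 CPM (-0.76), and Ulk1, the kinase that starts autophagy, 14.16 CPM against 26.9 CPM (-0.92). For heat shock chaperones, oxidative stress defence and the proteasome, 0 of 14, 0 of 13 and 0 of 17 genes passed, with medians of 0.03, -0.07 and 0.01. The largest ratios there were those of Hsph1, a co-chaperone of Hsp70 (0.83), Gclc, which limits glutathione synthesis (-0.65), and Psmd3, of the proteasome lid (-0.98, but 0.55 with the generation of the characteristics). Among 75 ribosomal protein genes 2 could be compared, Rpl4 (48.2 CPM against 27.6 CPM, 0.81) and Rpl15 (76.9 CPM against 50.1 CPM, 0.62), and reads of such genes may be shared with processed copies.

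DNA repair and apoptosis had 3 of 21 genes past the fold, all lower, with a median of -0.02. These were Xrcc6, Atm and Bcl2l11. Atm, the kinase that signals double-strand breaks, averaged 9.96 CPM in HFHS+Veh, against 36.3 CPM in CD+Veh (-1.86), but control oocyte 6 had 493.02 CPM and the ratio was 0.08 without it, and -2.68 without oocyte 1 of animal 26. Bcl2l11, the apoptosis inducer BIM, averaged 12.5 CPM against 35.1 CPM (-1.49), with -0.65 without control oocyte 14, -2.54 without oocyte 1 of animal 26, -0.49 with the generation of the characteristics and 1.08 against the 2 shallow controls. Trp63, the guardian of oocyte DNA, averaged 39.2 ± 31.5 CPM against 74.3 ± 76.5 CPM (-0.92).

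The F2 oocytes of the same lineage allowed a test, since their titles name 4 animals in each group and share no controls with F3. The F2 CD+DHT animals were also in the fit, and entered the filter on low counts, the scaling and the shared estimate of the spread. In edgeR's quasi-likelihood test on counts summed per animal, 0 of 11962 genes (0.0%) had an adjusted p under 0.05. In that test 118 had an unadjusted p under 0.05, and DESeq2 called 1. The characteristics of animal 10 and of 3 oocytes of animal 5 say F3. Without these oocytes 0 genes were called and 273 had an unadjusted p under 0.05, and without CD+Veh animal 3 these counts were 0 and 232. In edgeR's test 2 of all named genes had an unadjusted p under 0.05, Dnmt3l (log2 fold change -0.74, p = 0.0095) and Sohlh2 (0.56, p = 0.030, opposite to F3), both with an adjusted p of 1. The direction seen in F3 was shared in F2 by 45 of the 106 higher genes (42.5%) and 70 of the 175 lower ones (40%), beside 44.1% and 42.7% of all compared genes that were higher or lower. In F1, where no animal is named and the characteristics of the HFHS+Veh oocytes name the other hormone treatment, 42 of 106 (39.6%) and 91 of 175 (52.0%) shared it, beside 42.8% and 54.9%. Of the 9 most separated higher genes given 2 shared their direction in F2 and 2 in F1, and of the 10 lower ones 1 did in F2 and 6 in F1.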

How the data were processed

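Single MII oocytes were sequenced with Smart-seq2 on poly(A) RNA, per the labels. The authors deposited raw read counts per gene symbol, a table of RPKM values, and a table of natural log normalised values, of which only the choice of oocytes was used (it holds the same 31 oocytes). The authors used STAR 2.4.2a and Seurat 2.0 with the build mm10, per the submitters' processing notes. How reads were counted, with which annotation and whether by strand, is not given in the sources used here. Deposited counts held 24582 lines, of which 92 were ERCC spike-ins, and 23995 gene symbols were used, of which 22643 matched GENCODE vM21 on GRCm38. The 113 symbols turned into dates or merged names are not named.

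Groups were taken from the titles. Counts were scaled to CPM over gene counts, averaged over oocytes with equal weight, and compared as log2 ratios (Python 3.11.15, numpy 2.4.6, pandas 2.3.3, scipy 1.17.1). With 1 sample of oocytes per group no p-value is given for F3. Where a group has no count, the ratio is taken against 3 counts over the group. Depth was 186934 to 6892284 gene counts per oocyte; without molecular identifiers, Poisson intervals cover counting error only. No oocytes looked like repeats of 1 library (smallest chi-square per degree of freedom 7.51 in HFHS+Veh and 21.4 in CD+Veh). F2 counts were summed per animal and tested with edgeR 4.0.16 (quasi-likelihood, Benjamini-Hochberg), with DESeq2 1.42.0 as the alternative; whether animals of a group were independent litters is not stated. Both scripts were tested on simulated data.

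Genes were named by these rules: the 12 largest ratios each way among genes with a count at 180000 in at least 7 of 13 HFHS+Veh oocytes (higher) or 9 of 18 controls (lower), past 2-fold with either animal and with medians of the same direction; the 6 largest absolute differences; and the 4 members of each list with the largest ratio and at least 20 CPM. Some genes that met a rule are not reported here. The ranking by oocyte pairs, the genes at 50 CPM and above and the GC adjustment were chosen after values were seen. The oocytes compared and all gene lists were chosen with earlier results of these data known. Alternatives covered weighting, depth, scaling, the minimum level, the oocyte filter, the animal, the generation label and each oocyte left out.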

Additional observations from a re-analysis of the deposited data

Results flagged for a closer look

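For 12 of the 106 named genes both F3 HFHS+Veh animals went one way from their controls and all 4 F2 HFHS+Veh animals went the other way from theirs. The difference between generations was not tested, and the share of all compared genes with this pattern is not given. Of all compared genes higher or lower in F3, only 44.1% and 42.7% shared their direction in F2, so opposite directions were common. The characteristics of F3 animal 22 and of F2 animal 10, and of some oocytes of F2 animal 5, name the other generation. Values are log2 ratios to the CD+Veh group of the same generation. In edgeR's fit with TMM scaling, F2 log2 fold changes were smaller for Map3k4 (-0.23), L3mbtl2 (-0.26), Plekhg3 (-0.57) and Dpy19l2 (-0.62). So were those of Bank1 (-0.37), Spata7 (-0.096), Tube1 (-0.28) and Rasa2 (0.26). Whether each F2 animal keeps its direction with TMM scaling was not tested.

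Map3k4 stood at 2.35 in F3 and at -0.474 as the mean of the F2 animals (-1.334 to -0.016). L3mbtl2 stood at 2.34 in F3 and at -0.601 in F2 (-1.63 to -0.065). Plekhg3 stood at 2.28 in F3 and at -0.75 in F2 (-1.70 to -0.244). Dpy19l2 stood at 1.78 in F3 and at -0.697 in F2 (-1.423 to -0.105).

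Bank1 stood at 1.75 in F3 and at -0.809 in F2 (-1.939 to -0.111). Spata7, whose F3 oocytes were the best separated in thinned counts but not with all counts, stood at 0.57 in F3 and at -0.319 in F2 (-0.486 to -0.117). Tube1 stood at 0.75 in F3 and at -0.502 in F2 (-0.76 to -0.157). Rasa2 went the opposite way, at -0.39 in F3 and 0.362 in F2 (0.086 to 0.851).

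Bcl2l11 stood at -1.49 in F3 and at 0.592 in F2 (0.305 to 1.135). Dnm1l stood at 0.49 in F3 and at -0.157 in F2 (-0.284 to -0.035), and Mff at 0.38 in F3 and at -0.124 in F2 (-0.27 to -0.035). Zp2 stood at 0.04 in F3 and at -0.294 in F2 (-0.359 to -0.212). Its F3 values, 0.027 and 0.044 in animals 22 and 26, and that of Dnm1l in animal 22, 0.021, are too small to give a direction.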

How the results depend on the processing

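With single oocytes left out, 100 to 122 genes were higher and 160 to 213 lower; with single F2 animals left out the count of calls was 0. The counts of higher and lower genes, 106 and 175, moved to 503 and 631 against the 2 control oocytes no deeper than the deepest HFHS+Veh oocyte, 68 and 278 with TMM scaling (19.7% of genes past the fold higher, against 37.7%), 447 and 702 at a minimum of 5 CPM, 16 and 43 at 50 CPM, 1777 and 1690 with no minimum, and 239 and 408 with animal 22 only. Lower genes numbered 684 with control oocytes 19 and 21 (12.6% higher), and higher genes 574 with the generation of the characteristics (72.0% higher). Pooled counts gave 124 and 262, and thinned counts 133 and 221. The median difference in genes per oocyte was -1098 with all counts. The log2 ratio of summed cumulus markers, -0.09, became -1.16 with oocytes 19 and 21, 0.21 with medians and 0.0063 over the markers specific to oocyte 21. DESeq2 called 1 gene in F2. Of the 54 named genes past the fold, these reversed: Akap8 (-1.18), Ctsl (-0.16) and Pfkl (-1.57) with oocytes 19 and 21; Map3k7 (1.28), Psg17 (1.31), D630023F18Rik (0.11), Bcl2l11 (1.08), Kdm2a (0.0067) and Taf2 (0.37) against the 2 shallow controls; Kctd13 (0.21) and Cdc25a (0.36) with the generation of the characteristics; and Akr1c18 as medians (2.14) and as mean log2(CPM + 1) (0.55). Atm ranged from -1.95 to 0.084 with single control oocytes left out. With the generation of the characteristics 24 of the 54 fell short of the fold, and 16 against the 2 shallow controls; the cause was not tested. No paired analysis was possible because the numbers in the F3 titles name oocytes and, in HFHS+Veh, animals, which no control shares. Below 50 CPM, counts of the shallow HFHS+Veh oocytes are few, and most genes past the fold lie there.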
